A study of Mus musculus with 7 samples.

Results

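The genes described here encode the proteins of the cytosolic ribosome, the particle that translates messenger RNA. They were taken by name. The symbols begin with Rpl (large subunit) or Rps (small subunit) and a number, or are Rplp0, Rplp1, Rplp2, Rpsa or Fau. Symbols that hold '-ps', called pseudogenes here, and the Rps6k kinases were left out. In all, 88 of the 27998 genes listed for all 7 libraries matched. Of these, 78 carry the standard symbols of ribosomal proteins, 46 of the large and 32 of the small subunit. The other 10 symbols are paralogs, retrogenes or a binding protein, among them Rpl22l1, Rps27l, Rpl7l1, Rps27rt and Rps19bp1. Of the 114 symbols first matched, 16 pseudogenes and 10 Rps6k genes were left out. Names and annotation do not always match. Rpl6l, a member, is annotated as a processed pseudogene, and Rpl10-ps3, Rpl9-ps6 and Rps12-ps3, which were left out, as protein coding.

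The samples were cells of the central nervous system of B6 mice with experimental autoimmune encephalomyelitis (EAE), a mouse model of multiple sclerosis, induced with the peptide of residues 35 to 55 of myelin oligodendrocyte glycoprotein (MOG) and taken at the peak of disease. Per the labels each group held 5 mice with matched disease scores, cells were enriched on beads for CD4 or for CD45, and the goal was 5000 cells. The genotype labels were Lag3wt (called WT here) and Lag3Floxed, titled lag3ko (called Lag3KO here). Lag3 encodes an inhibitory receptor of T cells. The Cre driver, the deleted exons and the mice behind each library are not stated in the labels or files used. Single cells were profiled on the 10x Genomics Chromium system with 3′ chemistry version 2. There were 2 WT_CD4, 2 Lag3KO_CD4, 2 WT_CD45 and 1 Lag3KO_CD45 libraries, 4 WT and 3 Lag3KO in all. Since nothing says that libraries came from separate animals, p-values measure the spread between libraries, which may be technical.

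Libraries held 1428 to 2517 barcodes and 4585251 to 18940186 unique molecular identifiers (UMIs, each a counted transcript). Median UMIs per barcode were 2086.5 to 2599.5 in the CD4 and 5680.0 to 6405 in the CD45 libraries. Libraries shared at most 12 barcodes. Lag3 had 272 and 101 UMIs in the WT_CD4 libraries, 1 and 0 in the Lag3KO_CD4 libraries, 299 in WT_CD45 1 and 2 in Lag3KO_CD45 1. The library labelled WT_CD45 2 had 4, so its Lag3 level goes against its label. It is grouped by its label below, and the counts of calls, the shares and Rpl27 are also given without it where a test remains. Xist lay at 938.6 to 1017 CPM (counts per 1000000 UMIs) in the CD4 libraries and at 0 in the CD45 libraries, and Y-linked genes at 0.371 to 0.923 against 111.0 to 126.9 CPM. Sort, sex and processing batch therefore cannot be told apart. The CD4 libraries were mostly conventional T cell-like (Tconv, 695 to 1039 barcodes) and regulatory T cell-like (Treg, 229 to 471), with 31 to 86 monocyte or macrophage-like, 32 to 70 microglia-like and 49 to 81 neutrophil-like barcodes. The CD45 libraries were led by monocyte or macrophage-like cells (499 to 616), with 117 to 205 Tconv and 27 to 51 Treg barcodes. All class names rest on marker genes and are "like" names; the clusters were made without the 88 genes and their pseudogenes, so the values below were not used to form the classes.

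Ribosomal protein mRNAs are among the most abundant in any cell. Most vertebrate members are TOP mRNAs: their transcripts begin with a C followed by a run of pyrimidines, through which mTOR signalling, by way of 4E-BP and Larp1, sets how strongly they are translated. Resting lymphocytes make few ribosomes, and ribosome synthesis rises when they are activated. Many members also have processed pseudogenes, copies of the mRNA that were inserted back into the genome.

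The start regions of members on which the results turn are shown because the tract at the transcript start is the sequence feature this family is known for. RefSeq promoters (GRCm38.p6) were found for 58 of the 78 standard members, 68 promoters in all. Each line gives 80 bases before to 20 bases after the annotated start, 5′ to 3′, and the capitals mark the longest run of C and T that begins with C and reaches within 10 bases of the start.
Rpl12: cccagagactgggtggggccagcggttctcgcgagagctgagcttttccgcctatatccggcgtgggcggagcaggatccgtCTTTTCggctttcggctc
Rpl13a: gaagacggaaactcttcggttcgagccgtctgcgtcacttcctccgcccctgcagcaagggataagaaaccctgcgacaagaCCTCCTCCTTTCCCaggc
Rps15a: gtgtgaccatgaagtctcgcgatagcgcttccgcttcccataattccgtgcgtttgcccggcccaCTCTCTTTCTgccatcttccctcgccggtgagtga
Rpl31: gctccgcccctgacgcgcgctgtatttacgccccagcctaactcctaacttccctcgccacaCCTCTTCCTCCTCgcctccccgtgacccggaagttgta
Rps19: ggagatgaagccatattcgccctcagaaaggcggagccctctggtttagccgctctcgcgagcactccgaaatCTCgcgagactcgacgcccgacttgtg
Rps27l: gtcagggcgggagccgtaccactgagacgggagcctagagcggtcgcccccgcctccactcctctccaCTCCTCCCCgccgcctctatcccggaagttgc
Rpl7l1: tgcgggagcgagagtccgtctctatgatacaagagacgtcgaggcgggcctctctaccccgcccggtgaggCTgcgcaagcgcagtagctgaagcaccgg
Rps9: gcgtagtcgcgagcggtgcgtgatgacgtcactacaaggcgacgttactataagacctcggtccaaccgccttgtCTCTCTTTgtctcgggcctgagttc
The regions are Rpl12 chr2:32961632-32961731 on the plus strand; Rpl13a chr7:45128726-45128825 on the minus strand; Rps15a chr7:118116128-118116227 on the minus strand. The next are Rpl31 chr1:39367771-39367870 on the plus strand, Rps19 chr7:24884512-24884611 on the plus strand, Rps27l chr9:66946006-66946105 on the plus strand. The last are Rpl7l1 chr17:46782637-46782736 on the minus strand and Rps9 chr7:3703961-3704060 on the plus strand. The run was 6 bases long in Rpl12, 14 in Rpl13a, 10 in Rps15a, 13 in Rpl31, 3 in Rps19, 9 in Rps27l, 2 in Rpl7l1 and 8 in Rps9. Only the first listed promoter of a gene is shown. Other annotated starts of Rps19 had runs of 4 and 7, and another of Rps27l had a run of 4. A run of at least 6 bases was present in 36 of the 68 promoters of standard members (52.9%), in 22.9% of all 32851 promoters of the table and in 27.0% of 74 promoters of mitochondrial ribosomal protein genes. Over the whole window of 250 bases before to 50 after the start, CTTTCC on either strand was found in 48.5% of standard members' promoters and 26.6% of all. CCGGAAG, the core of the site bound by GABP and other ETS factors, was found in 36.8% against 8.86% (33.8% for mitochondrial members), and AAGATGG, the core of the YY1 site, in 17.7% against 6.34% (17.6% for mitochondrial members). These are counts of letters; no binding was measured.

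The 88 genes held 23.99% to 27.33% of all UMIs of a library. Each of 87 members had a UMI in every library. Of the 78 standard members, 72 lay over 100 CPM and 66 over 1000 CPM in every library, and the 10 highest held 25.8% of all member UMIs. Rpl13a had the highest median, 9617 CPM (lowest library 5989, highest 10791). It is a large subunit protein with a second known role in interferon-dependent silencing of translation in myeloid cells. The 10 other symbols held 1.57% of member UMIs.

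B cell-like cells gave the largest share of their UMIs to these genes: 42.58%, 43.78% and 44.13% in WT_CD45 1, WT_CD45 2 and Lag3KO_CD45 1. Natural killer (NK)-like cells followed with 34.76%, 33.81% and 33.40%, and Tconv cells with 34.12%, 31.55% and 31.58% of these libraries. All 3 lay above every dendritic and monocyte class. Plasmacytoid dendritic cell-like cells (pDC, the main producers of type I interferon) had 27.8 ± 1.04% (SD, n = 3), and Treg cells 28.5 ± 1.41%. Conventional dendritic cell-like classes had 25.9 ± 0.52% (cDC1, which cross-present antigen to CD8 T cells) and 25.5 ± 1.07% (cDC2, which mainly activate CD4 T cells). Monocyte or macrophage-like cells had 19.8 ± 0.75%, and migratory dendritic cell-like cells (migDC, mature Ccr7+ cells on their way to lymph nodes) 19.0 ± 0.96%. Neighbours in this order overlapped for NK and Tconv, for Treg and pDC, for cDC1 and cDC2 and for monocytes and migDC.

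In the CD4 libraries the shares were 29.7 ± 0.72% in Tconv (n = 4), 28.5 ± 0.81% in Treg, 16.4 ± 1.2% in monocytes or macrophages, 15.1 ± 1.19% in microglia and 5.69 ± 0.40% in neutrophils. Neutrophil-like barcodes were also the shallowest, with a median of 858 to 1200 UMIs. The neutrophil-like class of WT_CD45 1, the only CD45 library with at least 20 such barcodes, had 10.76%. Tconv minus monocytes or macrophages came to 12.6 percentage points over the 3 CD45 libraries (13.74, 11.39 and 12.60; exact sign-flip permutation test, two-sided p = 0.25, the smallest that 3 libraries allow).

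The share also differed between clusters of a class. The monocyte-like cluster with Chil3, Vcan and F13a1 among its leading genes, markers of recently arrived monocytes, had 22.4% to 23.9%, against 17.98% to 20.7% in the 3 other clusters of that class. In the CD4 libraries, 1 Treg cluster led by Ikzf2 and Izumo1r had 28.1% to 31.5% and the other, led by Ttr, Tnfrsf9, Ikzf2 and Cd81, had 25.8% to 26.7%. They also differed in depth, with a median of 4101 UMIs per barcode in the first and 1652 in the second. The part of depth was not tested. The T cell cluster of each sort with Tcf7, Igfbp4 and Ramp3 among its leading genes, a profile of resting or central memory T cells, had the highest share of the Tconv class: 34.82%, 34.05%, 34.25% and 35.44% in the CD4 libraries and 38.82%, 34.69% and 36.15% in the CD45 libraries. The remaining Tconv cells had 27.47% to 29.78% and 30.27% to 33.06%. These clusters were picked after their values were seen, so no test was made of them. In the CD4 libraries median UMIs per barcode were 1634.5, 2009, 1464 and 1689.5 in the Tcf7 cluster and 2247, 2355, 2484.5 and 1874 in the remaining Tconv cells. In the CD45 libraries they were 3399, 2900 and 2935 against 3237, 3219.5 and 3346. The part of this depth was not tested either.

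**Figure D1:**
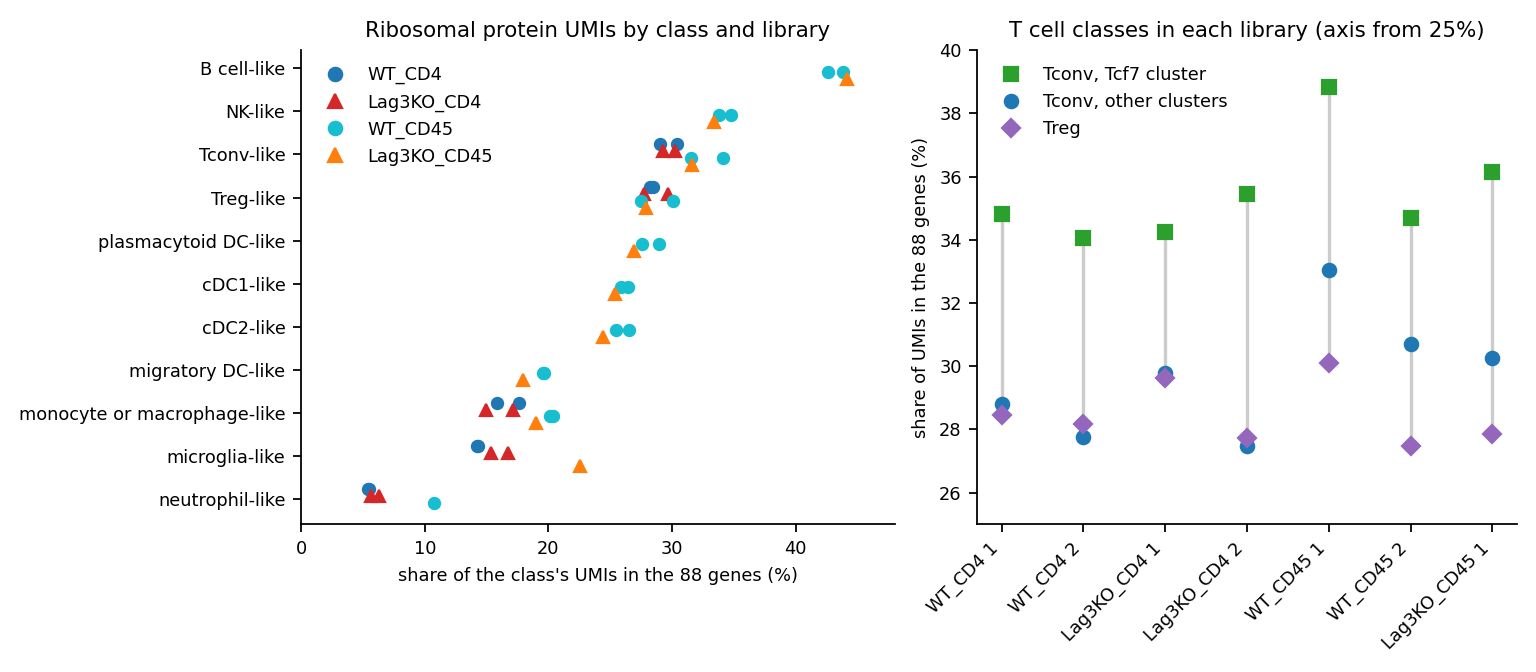
Share of UMIs (%) that fell in the 88 ribosomal protein genes. Left: each point is 1 library and class with at least 20 barcodes, coloured by group; B cell-like points sit between 42.58% and 44.13%, neutrophil-like points of the CD4 libraries between 5.40% and 6.27%. Right: the share in each library for Tconv cells of the Tcf7 clusters, the other Tconv cells and Treg cells, on an axis that begins at 25%; the Tcf7 clusters lie highest in each of the 7 libraries.

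Single members did not all follow the share. Over the 9 classes present in all 3 CD45 libraries, B cells had the highest mean level for 75 of 78 standard members, and the lowest was in migDC for 52 and in monocytes or macrophages for 23. To set this overall shift aside, each gene was expressed as UMIs per 1000 member UMIs. On that scale the highest class exceeded the lowest by a median of 1.39-fold, 52 of 78 standard members stayed under 1.5-fold and 5 exceeded 2-fold. The genes named in the next 3 paragraphs were chosen after their values were seen and are described with no test.

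Rps27l, a close relative of Rps27 whose transcription is induced by p53, was the most class-bound gene. Its level in migDC was 3005, 3784 and 4249 CPM in WT_CD45 1, WT_CD45 2 and Lag3KO_CD45 1. In cDC1, the next class, it was 677, 637 and 868 CPM, in cDC2 428, 462 and 539, and in B cells 169, 210.5 and 200.3. Every migDC library lay above every other class and library, with no overlap. Per 1000 member UMIs, Rps27l reached 19.4 ± 4.2 (SD, n = 3) in migDC against 0.444 ± 0.042 in B cells, a 43.8-fold range, while the share of all members was among the lowest in migDC. Rps27, the standard gene, had 253, 155 and 78.8 CPM in migDC. Of the 90-base windows at the 3′ end, 4.18% of those of Rps27l and 98.4% of those of Rps27 occur in other genes, and Rps27rt, a copy of Rps27, had 1557, 2017 and 1177 CPM in migDC.

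Rpl31, a large subunit protein near the exit of the peptide tunnel, stood out in pDC. Its level there was 8007, 8361 and 7897 CPM, against 3639, 3771 and 3733 in B cells, 2850.2, 2458 and 2883 in Tconv and 2129, 2136 and 1958 in monocytes or macrophages. In parts per 1000 member UMIs it was 29.1 ± 0.23 in pDC and 7.94 ± 1.37 in Treg cells, the lowest, a 3.66-fold range. The other 8 classes lay between 6.96 and 10.6, so no library of another class came near. None of the 3′ windows of Rpl31 occurs in another gene.

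Rps19, a small subunit protein whose loss causes Diamond-Blackfan anaemia, was lowest in pDC and took its largest part in migDC. Per 1000 member UMIs it was 47.1 ± 4.09 in migDC and 16.9 ± 1.18 in pDC. In CPM migDC (9357, 8371 and 9149) lay below B cells (11804, 12131 and 12964) and above cDC2 (6352, 6360.4 and 6737). Copies elsewhere in the genome hold 56.6% of its 3′ windows.

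**Figure D2:**
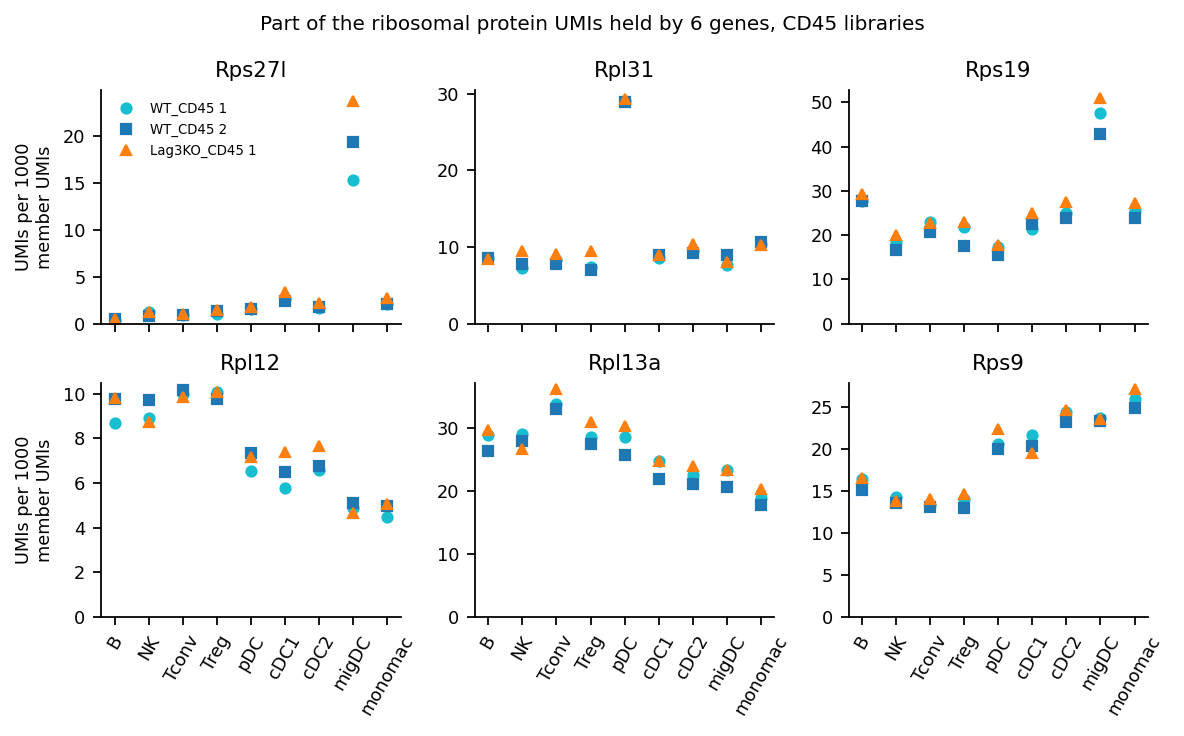
UMIs of 6 genes per 1000 UMIs of the 88 genes (each axis begins at 0) in 9 classes of the CD45 libraries; each point is 1 library, and pDC, cDC1, cDC2, migDC and monomac stand for plasmacytoid, conventional type 1, conventional type 2 and migratory dendritic cell-like and monocyte or macrophage-like cells. Rps27l is high in migDC, Rpl31 in pDC and Rps19 in migDC, while Rpl12 and Rpl13a are higher and Rps9 lower in T, NK and B cells than in monocytes or macrophages.

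T cells and monocytes or macrophages were compared within the 3 CD45 libraries with edgeR's quasi-likelihood test on UMIs summed per library and class (adjusted p by Benjamini-Hochberg over 8532 genes). Members rose in Tconv cells in 65 of 85 cases tested, against 23.6% of all genes, and fell in 3, against 28.6%. The median log2 difference was 0.46 over members and -0.035 over all genes. Rpl10l, Rpl39l and Rpl3l, paralogs known from testis or muscle, were too low to test. Both subunits took part, with 38 of 46 large and 25 of 32 small subunit genes called in either direction, the small subunit count including Rps9, which fell. Without the library labelled WT_CD45 2, 68 members were called in either direction, as with it, and the share differed by 13.2 points.

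The largest difference was in Rpl12, a protein at the base of the ribosomal stalk, with 3411, 3209 and 3110.0 CPM in Tconv and 912, 1001 and 964 in monocytes or macrophages. The groups did not overlap, and the log2 difference was 1.51 (SE 0.081, adjusted p = 1.1e-34). Rpl13a had 11507, 10396 and 11391 against 3854, 3583 and 3849 CPM, a log2 difference of 1.31 (SE 0.072, adjusted p = 8.43e-34). Rps15a, a small subunit protein, had 8101, 7463 and 7374 against 2993, 2895 and 2852 CPM, a log2 difference of 1.14 (SE 0.074, adjusted p = 2.5e-28). All 3 were higher in each Tconv library than in any monocyte library. Rpsa (the small subunit protein also known as the laminin receptor), Rpl5 (which joins 5S rRNA to the large subunit and can bind Mdm2), Rpl22l1 and Rps24 followed, at log2 differences of 1.00, 0.95, 0.95 and 0.95. Rps27, its retrogene-like copy Rps27rt, and Rps13 came to 0.80, 0.79 and 0.76.

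Of the genes of the stalk that recruits elongation factors, Rplp0 rose by 0.42, Rplp1 by 0.69 and Rplp2 by 0.57 on the log2 scale. Rpl22, an RNA-binding protein needed for αβ T cell development, rose by 0.60. Rpl36a rose by 0.53, Rpl39 by 0.63, Rpl3 by 0.57, Rps4x by 0.38 and Rpl7 by 0.50. Rps27a and Fau, which are made as fusions with ubiquitin or a ubiquitin-like protein, did not pass (log2 differences 0.03 and -0.18), nor did Rpl36al (0.07) or Rpl10 (-0.20).

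The 3 members that fell in Tconv were Rps27l, Rpl7l1 and Rps9. Rps9, a small subunit protein near the mRNA entry, had 4529.6, 4111 and 4446 CPM in Tconv against 5289, 5008 and 5133, a log2 difference of -0.49 (SE 0.074, adjusted p = 6.52e-09). Rps27l had 301, 284 and 332 against 422, 420.1 and 514 CPM, a log2 difference of -0.81 (SE 0.11, adjusted p = 3.67e-11). Rpl7l1, a homolog of Rpl7, had 54.2, 33.3 and 42.1 against 51.1, 56.2 and 65 CPM, a log2 difference of -0.69 (SE 0.2, adjusted p = 0.00241). Levels of Rps9 did not overlap between the classes; for Rpl7l1 they did. The fit scales sums by TMM (trimmed mean of M-values), which makes these 3 differences more negative than the ratios of CPM.

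Other genes of protein synthesis were read against the same backgrounds, 23.6% higher and 28.6% lower. Of 33 translation factors tested 17 rose (among them Eef1a1, Eef1b2, Eef2 and Tpt1) and 1 fell (Eif4a1), with a median of 0.30. Of 43 ribosome biogenesis genes 19 rose (Ncl, Npm1, Nop56 and Nop58 among them) and 2 fell (Eif6 and Tma16). Of 75 mitochondrial ribosomal protein genes 15 rose and 13 fell, both shares below those of all genes. Gnb2l1 (Rack1, a small subunit scaffold) rose. Among 14 regulators of Myc and mTOR signalling, Myc and Eif4ebp2 rose and Akt1, Eif4ebp1, Larp1, Larp4 and Max fell.

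Treg and Tconv cells were compared within all 7 libraries. Treg cells are known as suppressor cells that express Foxp3, but the clusters of the CD4 libraries were named from genes such as Ikzf2, Izumo1r and Lrrc32. Tconv holds other CD4 T cell clusters, without the cycling and the unnamed ones. Treg cells gave 2.39 percentage points less of their UMIs to the 88 genes (SD 1.52), lower in 7 of 7 libraries (exact sign-flip permutation test, two-sided p = 0.0156, the smallest possible). The gap was -1.97, -0.81, -0.63 and -1.48 points in the CD4 libraries and -4.04, -4.06 and -3.73 in the CD45 libraries. Without the library labelled WT_CD45 2 it was -2.11 points (exact sign-flip permutation test, p = 0.0312). When the Tcf7 clusters, picked after their values were seen, were taken out of Tconv, the gap was -1.2 points and Treg was lower in 5 of 7 libraries. Those clusters had the highest share of the class, so their removal had to shrink the gap, and no p is given. In that comparison the CD4 libraries lay at -0.36, 0.44, -0.14 and 0.27 points and the CD45 libraries at -2.97, -3.20 and -2.42. Treg cells also had a higher median of UMIs per barcode than all Tconv cells in each library. The medians were 2240 to 3181.5 against 1807 to 2295.5 in the CD4 libraries and 3242 to 4037.5 against 3174 to 3256 in the CD45 libraries. The part of depth in the gap was not tested.

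Among single members, 46 of 85 fell in Treg cells and 0 rose, against 8.19% and 8.53% of 6822 genes tested (edgeR, adjusted p under 0.05). DESeq2 called 45, of which 42 were shared, and 65 of the 85 had an unadjusted p under 0.05. Estimates were below 0 for 82 members, and the median was -0.16 against -0.0035 over all genes. The differences were small, from -0.39 to 0.04. Without the Tcf7 clusters 23 members fell, all of them among the 46, a count that rests on the same choice of clusters. Without the library labelled WT_CD45 2, 40 fell.

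Rpl10, a protein added late to the large subunit near its catalytic centre, had 64.6, 101, 51.5, 69.2, 235, 169 and 124 CPM in Treg cells of WT_CD4 1 and 2, Lag3KO_CD4 1 and 2, WT_CD45 1 and 2 and Lag3KO_CD45 1. In Tconv of the same libraries it had 76.6, 133, 55.1, 84.2, 239.6, 302 and 173 CPM. Treg was lower in each of the 7, and the log2 difference was -0.39 (SE 0.097, adjusted p = 0.00545). Rpl13a had 11191, 10606, 11879, 10362, 8563, 7542 and 8593 CPM in Treg and 12956, 11971, 12899.5, 12146, 11507, 10396 and 11391 in Tconv, again lower in each library, a log2 difference of -0.35 (SE 0.05, adjusted p = 1.05e-05).

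Rps25, Rpl29, Rps29, Rps26, Rpl35a, Rpl5 and Rpl6l were also among the 10 largest, at log2 differences from -0.33 to -0.30. Rps25 and Rps26 lie on the small subunit, where Rps25 is needed by some viral internal ribosome entry sites. Of the fixed genes, Rplp2, Rps27a, Rpl36a, Rpl36al, Rps4x, Rpl7 and Rpl3 fell by 0.22, 0.17, 0.22, 0.22, 0.19, 0.19 and 0.15 on the log2 scale. Rplp0, Rplp1, Rpsa, Fau, Rpl22, Rpl22l1, Rps27, Rps27l, Rpl39 and Rpl7l1 did not pass, with values between -0.13 and 0.04. Against 8.19% of all genes lower, of 33 translation factors 0 rose and 11 fell, among them Eef1a1, Eef1b2, Eef1g and Eef2, which bring in aminoacyl-tRNA or move the ribosome. Among 38 biogenesis genes 5 fell, among 74 mitochondrial ribosomal protein genes 7, a share near that background, and among 14 Myc and mTOR regulators Rheb, which activates mTOR; Gnb2l1 fell too. None of these lists had a gene that rose.

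Marker levels of other cells differed between the sorts beside these values. The summed level of 20 monocyte or macrophage genes in the CD4 libraries was lower in Treg (590.5 to 689 CPM) than in Tconv (1028 to 1429), in 4 of 4 libraries. In the CD45 libraries it was higher in Treg (2431 to 2913) than in Tconv (2001 to 2556), in 3 of 3. The 12 cycling genes came to 343 to 384 CPM in Treg and 348 to 467 in Tconv of the CD4 libraries, and to 689.7 to 999 and 337 to 447 CPM in the CD45 libraries. Their part in the difference between Treg and Tconv was not tested.

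**Figure D3:**
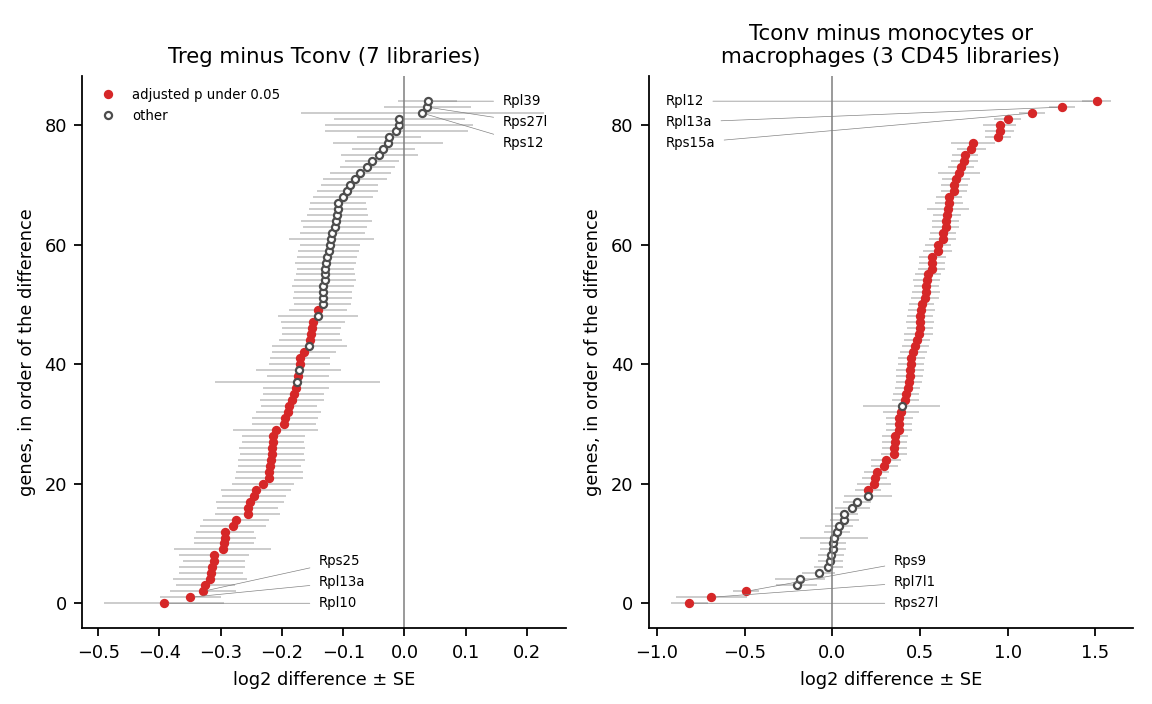
Log2 differences (x axis, with SE bars) of the 85 tested members in order of size (y axis). Left, Treg minus Tconv over 7 libraries, from Rpl10 at -0.39 to Rpl39 at 0.04; right, Tconv minus monocytes or macrophages over 3 CD45 libraries, from Rps27l at -0.81 to Rpl12 at 1.51. Filled points have an adjusted p under 0.05.

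Lag3KO and WT libraries were compared in Treg and Tconv cells, where Lag3 acts. The share of UMIs did not differ beyond the spread: Lag3KO minus WT, with sort as a term, was -0.15 points in Treg (exact permutation of labels within sort, two-sided p = 0.833) and -0.48 points in Tconv (p = 0.722), where 0.0556 is the smallest p that 18 arrangements allow. The Treg estimate was 0.37 without WT_CD45 1, 0.37 without Lag3KO_CD45 1 and 0.19 without Lag3KO_CD4 2, and the Tconv estimate 0.041 and 0.043 without the first and the second of these. In single genes edgeR called 0 of 85 members in Treg and 0 of 86 in Tconv, against 0.214% and 0.0% of all genes. DESeq2 called 0 members in these 2 comparisons and in the 4 of the next 2 paragraphs. At an unadjusted p under 0.05 there were 6 and 5 members by edgeR. Without the library labelled WT_CD45 2 the counts were again 0 and 0, and the shares differed by -0.50 and -0.82 points.

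Rpl27, a large subunit protein, had the smallest p in Treg: 66.1, 142, 242 and 390.0 CPM in the 4 WT libraries and 52.9, 71.4 and 124 in the 3 Lag3KO libraries. The log2 difference was -0.86 (SE 0.23, adjusted p = 0.26); without the library WT_CD4 1 it was -1.23 and called (adjusted p = 0.00106), and leaving out WT_CD45 2 gave -0.76 (adjusted p = 0.625). Rpl27 in Tconv had 66.2, 139, 176 and 392 CPM in WT and 41, 61.8 and 243 in Lag3KO libraries, where the groups overlapped in the CD45 sort. Rps27rt and Rpl6l were next in Treg (-0.48 and -0.50), and Rpl10, Rps12 and Rpl27 led in Tconv (-0.59, -0.80 and -0.67). Rps27rt was also called in Treg without WT_CD4 1 (log2 difference -0.78, adjusted p = 0.0127). Most 90-base windows at the 3′ end of these genes occur in other genes: 90.7% for Rpl27, 100% for Rps27rt and Rpl10, 85.2% for Rpl6l and 95.5% for Rps12.

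Within the CD4 libraries 0 members were called in Treg (background 0.214%; Rps27 0.68, Rpl27 -0.70, Rpl6l -0.46; 3 at an unadjusted p under 0.05) and 0 in Tconv (background 0.0534%; 3 unadjusted). Without WT_CD4 2, Rps27 was called in Treg at a log2 difference of 1.41 (adjusted p = 0.000332), and without WT_CD4 1, Rpl27 at -1.15 (adjusted p = 0.0215). In Treg cells Rps27 had 149.5 and 339.7 CPM in the WT_CD4 libraries and 449 and 340.3 in the Lag3KO_CD4 libraries. The difference of the genotype effect between the sorts was called for 0 members in Treg (background 0.0378%; 6 unadjusted) and 0 in Tconv (background 0.0%; 2 unadjusted), with Rps27 first at 2.05 and 2.09. Without the library labelled WT_CD45 2 the calls were again 0 and 0, with 13 and 7 members at an unadjusted p under 0.05. Without WT_CD4 2, Rps27 was called in Treg (2.80, adjusted p = 0.00121). No gene of the translation factor, biogenesis, mitochondrial ribosomal or Myc and mTOR lists was called between genotypes by edgeR in Treg or Tconv cells. Ribosomal pseudogenes were not called either, but with sort as a term only 2 of 13 in Treg and 1 of 15 in Tconv had an estimate above 0. Their median log2 differences were -0.30 and -0.37, against -0.0053 and -0.0027 over all genes. Within the CD4 libraries the medians were -0.15 and -0.086.

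In the other classes of the CD45 libraries 1 Lag3KO library was set against the 2 libraries labelled WT, of which WT_CD45 2 has a Lag3 level near that of the Lag3KO library. This leaves 1 residual degree of freedom per class. Members were lower in Lag3KO_CD45 1 in 35 of 592 tests (5.91%), against 164 of 35494 tests of all genes (0.462%), and higher in none by edgeR's adjusted p. The 7 classes reuse the same 3 libraries, so calls of a gene in several classes are not repeated evidence. DESeq2 called 0 of them. The calls fell on 17 members: 16 calls in cDC2, 7 in pDC, 7 in migDC, 3 in cDC1, 1 in B cells, 1 in monocytes or macrophages and 0 in NK cells. The share of all genes called lower was 0.66% in cDC2, 0.644% in pDC, 0.994% in migDC, 0.258% in cDC1, 0.599% in B cells, 0.146% in monocytes or macrophages and 0.0% in NK cells. The Lag3KO library was below both libraries labelled WT in 34 of the 35, but those libraries themselves were over 1.5-fold apart in 10.

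Rps27rt was called in 5 classes. In cDC2 it had 1237, 1809 and 836 CPM in WT_CD45 1, WT_CD45 2 and Lag3KO_CD45 1, a log2 difference of -0.93 (SE 0.15, adjusted p = 0.000114), and in B cells 3395, 5338 and 2678 CPM. Rps7, a small subunit protein that can bind Mdm2, was called in 4: cDC2 had 2574, 1808 and 1425 CPM, a log2 difference of -0.69 (SE 0.14, adjusted p = 0.00308). Both genes were lowest in the Lag3KO library, and they differed between the libraries labelled WT in opposite order.

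Rpl35, a large subunit protein at the tunnel exit, was also called in 4 classes. Here the library labelled WT_CD45 2, whose Lag3 level is low, lay with the Lag3KO library. In cDC2 the level of Rpl35 was 1027, 409 and 353 CPM, in cDC1 1077, 384 and 317 and in pDC 1070.2, 381 and 387. In the CD4 sort, Rpl35 summed over all kept barcodes stood at 2048 (Lag3KO_CD4 1), 1817 (Lag3KO_CD4 2), 1249 (WT_CD4 1) and 1925 CPM (WT_CD4 2). Those sums are mostly of T cells, unlike the classes above, and a link between Lag3 and Rpl35 was not tested. Rplp2 was called in 3 classes, with 3228, 2492 and 2128 CPM in cDC2. Fau, Rpl41, Rpl9, Rps27, Rps28 and Rps29 were each called in 2. Fau in cDC2 had 108, 172 and 68.4 CPM, and Rpl41, the shortest ribosomal protein, 6735, 7158 and 5258 CPM. With WT_CD45 2 left out 1 library remains in each group, so no test is possible; the ratios of Lag3KO_CD45 1 to WT_CD45 1 in cDC2 were 0.676 for Rps27rt, 0.554 for Rps7 and 0.343 for Rpl35.

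The share of UMIs in Lag3KO_CD45 1 was below both libraries labelled WT in 6 of these 7 classes, with differences from their mean of -0.76 (cDC1) to -1.66 (migDC) points, and above both in B cells, 0.95 points above their mean. Lag3KO_CD45 1 also had the lowest median of UMIs per barcode in each of the 7 classes. In cDC1 it was 6410 against 9450 and 8172 in WT_CD45 1 and 2, and in B cells 3021.5 against 3241 and 3161. The part of depth was not tested. The ribosomal pseudogenes were also lower in Lag3KO_CD45 1, with medians of -0.60 to -1.0 on the log2 scale in the 7 classes (6 calls in cDC2, 3 in pDC, 3 in migDC, 2 in monocytes or macrophages and 1 in B cells). With 1 Lag3KO library, genotype and library cannot be told apart.

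**Figure D4:**
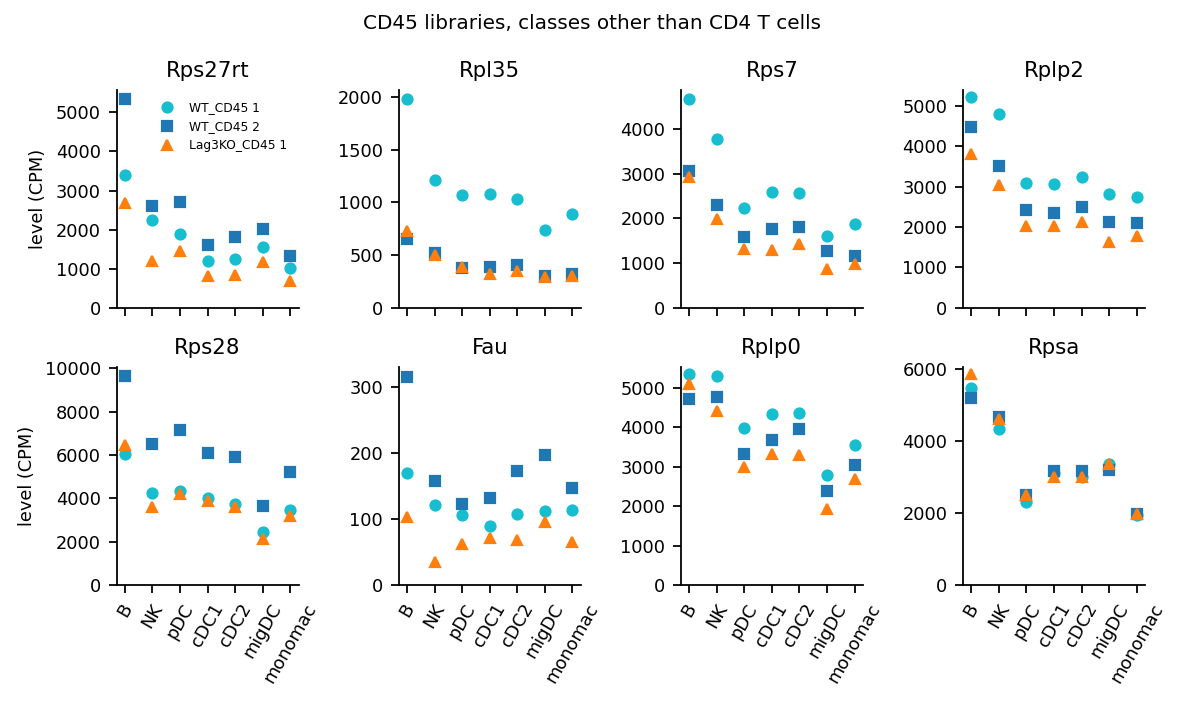
Levels (CPM, each axis from 0) of 8 members in 7 classes of the 3 CD45 libraries; each point is 1 library. In Rps27rt, Rps7, Rplp2 and Fau the Lag3KO library is lowest in every class, in Rpl35 WT_CD45 2 lies near it, in Rps28 WT_CD45 2 stands high, and Rpsa differs little between libraries.

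The sort was compared in Tconv cells with genotype as a term. Members differed in 35 of 86 cases (background 8.92%): 6 were higher in the CD4 libraries (background 4.28%) and 29 lower (background 4.64%), with a median of -0.28. This count was 23 without Lag3KO_CD45 1 and 28 without the library labelled WT_CD45 2. Rpl9 had 596, 846, 884 and 799 CPM in the 4 CD4 libraries and 192, 117 and 110.0 in the 3 CD45 libraries, with no overlap, a log2 difference of 2.38 (SE 0.21, adjusted p = 6.1e-06). Rpl23a (1.60), Rpl35 (1.42), Rpl22l1 (0.65), Rps7 (0.65) and Rplp0 (0.43) were the other higher members.

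Rpl27 in Tconv had 66.2, 139, 41 and 61.8 CPM in the CD4 and 176, 392 and 243 in the CD45 libraries, a log2 difference of -1.88 (SE 0.29, adjusted p = 0.000864). Rps12, needed for cell competition in flies and a small subunit protein, had 11.7, 19.6, 6.75 and 12.2 against 58.8, 52.1 and 25.7 CPM, a log2 difference of -1.83 (SE 0.29, adjusted p = 0.00108). Rps28, Rpl10, Fau, Rps27rt, Rpl5, Rps26, Rps21 and Rps29 were lower by -1.47 to -0.95 on the log2 scale. Of 15 ribosomal pseudogenes 10 were lower in the CD4 libraries and 0 higher, with a median of -1.44. The files of the 2 sorts list 27998 and 28692 genes, so their annotations differ too.

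Copies of the 3′ end were counted in GENCODE vM21 transcripts (GRCm38). Counting software of this kind commonly drops reads that match several genes. Of the last 400 bases of each standard member, the windows of 90 bases that also occur in another gene were none in 19 members, up to 50% in 28 and over 50% in 31. Whether the matching genes were among those listed for these libraries was not checked, so the shares need not equal the reads lost in counting. Apart from the stalk, each ribosome holds its proteins in equal numbers. In Tconv 9 standard members had a median under 1000 CPM: Rps12 at 19.6, Fau at 56.2, Rpl10 at 133, Rpl27 at 139, Rps27 at 299, Rpl15 at 580, Rpl9 at 596, Rpl23a at 639 and Rpl7a at 772. All 9 had over 75% of their windows in other genes, as had 21 of the 78 overall.

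The spread between libraries was set beside the same shares of windows. Of 9 standard members whose highest Tconv library was over 3-fold the lowest, 8 had over 75% of windows shared, and Rps28 with 43.2% was the exception (4.23-fold). Rpl27 varied most, by 9.56-fold, then Rps12 by 8.70 and Rpl9 by 8.03. Within the CD4 and within the CD45 libraries the spread was smaller: 3.38-fold and 2.22-fold for Rpl27, 2.90-fold and 2.28-fold for Rps12, and 1.48-fold and 1.75-fold for Rpl9. The wider range thus includes the difference between the sorts, whose annotations differ. By contrast 45 of 78 stayed under 1.5-fold. Some members with many shared windows varied little: all windows of Rpl36a and 89.1% of those of Rps27a occur elsewhere, and they varied by 1.29-fold and 1.16-fold. How reads of shared sequence were counted was not tested. Across the 78 genes, which are not independent, Spearman's rho between shared windows and spread was 0.24. In Treg against Tconv, members with no shared window fell in 10 of 19 cases, those with up to 50% in 19 of 28 and those with more in 14 of 31. In Tconv against monocytes they rose in 17 of 19, 22 of 28 and 23 of 31.

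**Figure D5:**
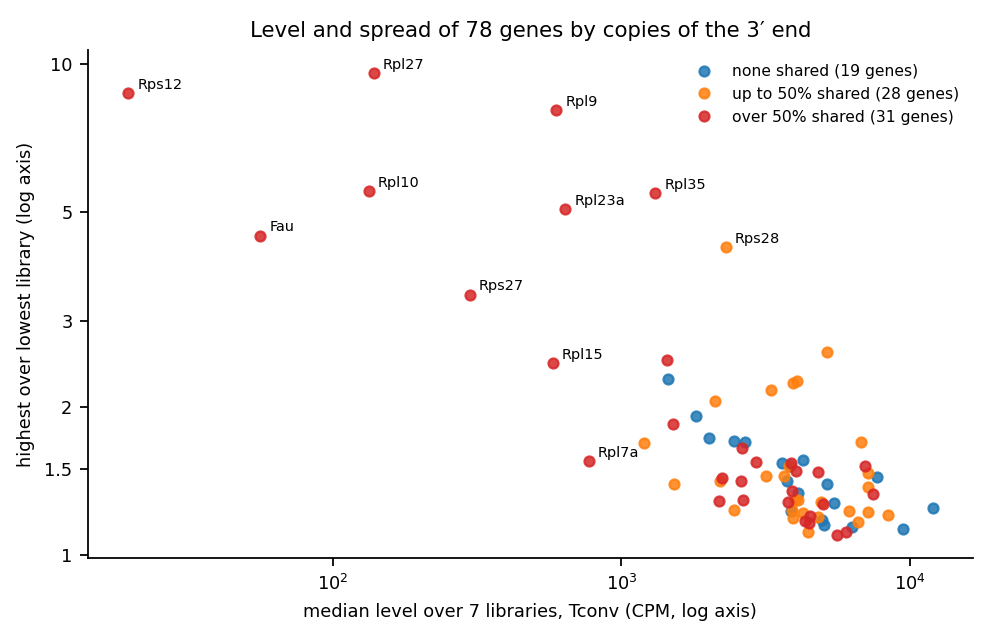
Median level of the 78 standard members in Tconv cells over 7 libraries (x axis, CPM, log scale) against the highest library divided by the lowest (y axis, log scale), coloured by the share of 90-base windows at the 3′ end that occur in other genes. The genes under 1000 CPM and those over 3-fold are named, and 8 of the 9 over 3-fold have over 75% of windows shared.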

How the data were processed

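The deposited values are UMI counts per gene and barcode, not normalized, made by the authors; the submitters' processing notes name Cell Ranger, Seurat, GRCm38 and mm10, and the CD4 file headers give software version 3.0.2. Multi-gene reads, read length and cell filters are not stated in the labels or files used. Barcodes with at least 200 genes and at most 10% mitochondrial UMIs were kept; 15 to 51 barcodes per library with the most simulated doublets among their neighbours and barcodes with RNA of a lymphoid and a myeloid lineage (2.64% to 5.68% of CD4 and 20.9% to 26.0% of CD45 barcodes) were set aside. Cells were clustered per sort (2000 variable genes, 30 principal components, 15 neighbours, Leiden resolution 1) without the 88 genes and their pseudogenes. T clusters were checked for other lineages against non-T cells. The naming rules were set after clusters were seen, and the members and gene lists were chosen with earlier results of these data known.

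CPM is a class's UMIs per 1000000 in a library; a class needed 20 barcodes. Sums were tested with edgeR 4.0.16 (quasi-likelihood, TMM, filterByExpr, two-sided) and, as an alternative, DESeq2 1.42.0, adjusted over all genes with a threshold of 0.05. Shares were tested by exact permutation over libraries. The comparisons were Treg against Tconv and Tconv against monocytes (within library), Lag3KO against WT (sort as a term) and CD4 against CD45 (genotype as a term). Members named are those past the threshold (at most 10 per direction), otherwise the 3 with the smallest p, and fixed members and paralog pairs; Rps4l is not analysed here. Some genes that this rule names are not reported here. The fits were tested on simulated data. Alternatives were other scaling, filters, clustering, mixed barcodes and each library left out.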

Additional observations from a re-analysis of the deposited data

Results flagged for a closer look

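The gap between Treg and Tconv cells in the share of UMIs differed between the sorts. Treg minus Tconv was -1.22 ± 0.62 points (SD, n = 4) in the CD4 libraries and -3.94 ± 0.18 points (n = 3) in the CD45 libraries. The difference of the gaps was -2.72 points, and the groups did not overlap. The comparison was chosen after the gaps were seen, so it is a description and no p is given. The difference was -2.91 points without the Tcf7 clusters and -2.66 without the library labelled WT_CD45 2. Treg sums of the CD45 libraries rest on 27 to 51 barcodes and those of the CD4 libraries on 229 to 471. The summed level of 8 resting T cell genes was 1172 to 2156 CPM in the Treg and Tconv sums of the CD4 libraries and 323 to 608 CPM in those of the CD45 libraries, and its part in the difference was not tested. Sort, sex and batch cannot be told apart here.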

How the results depend on the processing

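Of 51 alternatives for the 4 tests of shares, 44 kept direction and side of the threshold. Of 85 for 14 class levels, 6 moved: Treg of the CD4 libraries to 27.1% (mean over cells) and 29.3% (without mitochondrial UMIs), Tconv there to 30.6% (without mitochondrial UMIs) and 28.5% (without the Tcf7 clusters), and B cells to 44.96% (without mitochondrial UMIs) and 41.7% (mixed barcodes kept). The Treg minus Tconv gap was -1.2 without the Tcf7 clusters, an alternative chosen after seeing the data, and the count of lower members was then 23. Lag3KO minus WT in Treg became 0.33 with mixed barcodes kept; leaving out each library in turn gave -0.76 to 0.37 in Treg and -0.96 to 0.043 in Tconv. The causes were not tested. With no filter on low counts, which tests more genes, genotype calls were 2 (Treg), 4 (Tconv), 1 and 2 (CD4 libraries) and 2 and 2 (difference between sorts). Leaving out 1 library gave 0 to 2 calls in Treg, 0 to 1 in Treg of the CD4 libraries and 0 to 1 for the difference in Treg. The 35 calls in other CD45 classes became 20 with DESeq2 size factors, 22 with members in the clustering and 0 with DESeq2. The 35 sort calls in Tconv ranged from 23 to 36 with 1 library left out. Of 113 alternatives for counts, 98 stayed within 1.5 times. Of 675 for single members, 89 lost and 6 gained a call and 0 reversed. A reversal was counted only for genes called in the main setting, so changes of sign in uncalled genes are not in that count. No paired analysis was possible because the labels give no replicate numbers shared between genotype or sort groups; classes were compared within libraries. With 27 to 51 Treg barcodes in each CD45 library, and 1 Lag3KO_CD45 library, small changes were not detectable. Larger changes were often missed too in the simulated data, where the changed genes were drawn from all those tested. Between genotypes, 14% of 1.5-fold and 52% of 2-fold changes were found in Treg and 12% and 68% in Tconv. In cDC2 the fit found 4% and 22%.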

Other observations

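Of the CD4 classes, microglia-like cells had 14.18% and 14.30% in WT_CD4 and 15.32% and 16.75% in Lag3KO_CD4 libraries, with no overlap. The microglia-like sums rest on 32 to 70 barcodes, and with 2 libraries per group no test was made. Their median UMIs per barcode had the same order, 3099 and 3551 in WT_CD4 and 3680.5 and 3986.5 in Lag3KO_CD4. The part of depth was not tested. Neutrophil-like sums did not overlap either (5.40% to 5.46% in WT_CD4 and 5.62% to 6.27% in Lag3KO_CD4). The mean over barcodes of the share per barcode had the opposite order there, 5.84% and 6.26% in WT_CD4 against 5.63% and 5.39% in Lag3KO_CD4. In the larger neutrophil-like cluster the groups overlapped (6.04% and 6.84% in WT_CD4, 5.71% and 6.22% in Lag3KO_CD4). Treg, Tconv, cycling T and monocyte or macrophage-like cells did overlap. Among T cell states left out of the comparisons, cycling T cells had 27.6 ± 2.48% (SD, n = 4) in the CD4 libraries.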
